A study of Tupaia belangeri chinensis with 36 samples.

Results

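Receptors for glutamate, GABA, glycine, acetylcholine, serotonin, dopamine and noradrenaline lie on the surface of neurons and progenitors, and long noncoding RNAs are often transcribed next to or across the genes that encode them. The tree shrew annotation names a noncoding feature after a coding gene, either as an intergenic transcript (LINC- before the symbol) or as an antisense transcript (-AS- after it). Features of either kind were taken as members when their symbol began with that of a receptor for one of these transmitters. The rule used names alone and no measured value. It gave 416 members among 76871 features, 221 of them intergenic and 195 antisense, under 83 gene symbols, of which 80 stood in a RefSeq table of the tree shrew. The receptor genes themselves were not analysed here, because the coding features carry identifiers without symbols.

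RNA came from the fetal cortex of the Chinese tree shrew (Tupaia belangeri chinensis), a small mammal close to primates, at embryonic days 28, 37 and 42 (E28, E37 and E42). Layers were cut by laser capture from Nissl-stained frozen sections, and each library held the RNA of a single layer, from total RNA selected for poly-A tails, so that transcripts without such a tail were not captured. No treatment was given and no genotype is stated. The study describes its experiments in general as having biological replicates, but the labels tie no library to an animal, so the p-values measure the spread between these libraries, whatever its source. The E28 set held the ventricular zone (VZ), the inner and outer subventricular zones (ISVZ and OSVZ), the intermediate zone (IZ), the cortical plate (CP) and the marginal zone (MZ), with 2 libraries per layer. For E37 the IZ had 3 libraries, and the MZ and the inner and outer parts of the plate (CPi and CPo) had 2 per layer, while a single library came from an undivided plate. The germinal layers of E37 were not analysed here. The E42 set held the ISVZ, OSVZ, IZ, CPi, CPo and MZ with 2 libraries per layer, and 1 library of the VZ. A second E42 VZ file was left out because its counts were identical to those of the second E28 VZ library, the only identical pair among 630 pairs of files.

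Fast excitation in the cortex runs through AMPA, kainate and NMDA receptors for glutamate, and fast inhibition through GABA-A and glycine receptors, whose chloride currents can depolarize immature cells. Metabotropic glutamate, muscarinic, dopamine, adrenergic and most serotonin receptors act through G proteins, while nicotinic receptors and the serotonin receptor HTR3A are ion channels. In the fetal cortex such receptors are known from migrating neurons and from progenitors, before most synapses exist. The VZ, ISVZ and OSVZ, called germinal here, hold the dividing progenitors, and the IZ, CP and MZ, called neuron-rich, hold migrating and settled neurons.

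The depth on features was 17932690 counts in the shallowest library and 102042743 in the deepest, with medians of 30900297.5 at E28, 25744685 at E37 and 41628512 at E42. The members took 146 to 4065 counts of a library. Levels are given as CPM, the count scaled to the normalised library size, and 1 count equalled 0.00957 to 0.0556 CPM depending on the library. All intergenic and antisense features together took 1.47% to 2.26% of the counts. The layers were checked with noncoding features named after marker genes, since the markers themselves carry no symbol. At E28 the 72 features named after progenitor genes summed to 11.2 to 90.5 CPM in the germinal layers and to 2.84 to 8.54 CPM in the neuron-rich layers, while the 90 features named after neuronal genes summed to 2.94 to 28.9 CPM and 19.8 to 46.2 CPM, so that the progenitor ranges did not overlap and the neuronal ones did. At E42 the progenitor-named features summed to 25 to 68.2 CPM in the germinal layers and 1.47 to 13.5 CPM in the neuron-rich layers. The neuron-named features summed to 5.86 to 30 CPM and 19.9 to 58.1 CPM at that stage, again with overlap. The 33 features named after vascular and meningeal genes summed to 1.06 CPM or less in every library, and the 2 named after microglial genes to 0.314 CPM or less.

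Most members were rare. No count fell on 120 of the 416 in any library (28.8%, against 35.3% of the other 53955 intergenic and antisense features), 152 had 1 to 9 counts in all, and 144 had 10 or more. A filter on low counts left 64 members for the tests (15.4%, against 20.0% of the other intergenic and antisense features), and 16 of these exceeded the filter level of 0.315 CPM in 1 library only. Antisense members passed more often, with 45 of 195 (23.1%) against 19 of 221 intergenic members (8.60%). The 64 stood under 40 symbols. Because a member could pass through the layers in which it was high, counts over the 64 describe those members and not all 416.

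A few members held most of the signal. The 10 with the most counts took 59.1% of all member counts, led by GRIA3-AS-3 with 3597 counts and GLRB-AS-3 with 3589 (12.3% each), followed by GRIK1-AS-2 with 2215 and HTR3A-AS-1 with 1923. LINC-HTR1B-1, HTR2A-AS-1, LINC-CHRM2-4, LINC-GABRB1-1 and GABRA2-AS-1 came next, with 812 to 1282 counts. By receptor class, members named after serotonin receptors took 20.6% of member counts, those after GABA-A receptors 16.7%, AMPA receptors 16.1%, glycine receptors 15.1% and kainate receptors 12.2%. Counts were not scaled by transcript length, so these shares rank reads and not molecules.

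The summed level of the members was lowest in the germinal layers of E28. It ran from 4.66 to 10.7 CPM there (median 6.95, n = 6) and from 14.7 to 36.5 CPM in the neuron-rich layers of the same stage (median 24.7, n = 6), with no overlap. The neuron-rich layers lay between 16.7 and 29.2 CPM at E37 (median 23.7, n = 10) and between 23.4 and 38.9 CPM at E42 (median 28.8, n = 8). The germinal layers of E42 held 19.2 to 28.6 CPM (median 25.4, n = 5), above every germinal library of E28 and overlapping the neuron-rich layers of their own stage. With every library thinned to the depth of the shallowest, the median number of members expected with a count was 31.1 in the germinal layers of E28, 49.4 in the neuron-rich layers of E28, 56.6 at E37, and 60.4 and 71.2 in the germinal and neuron-rich layers of E42. Fewer cells of a type and less RNA per cell cannot be told apart in libraries of whole layers.

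**Figure D1:**
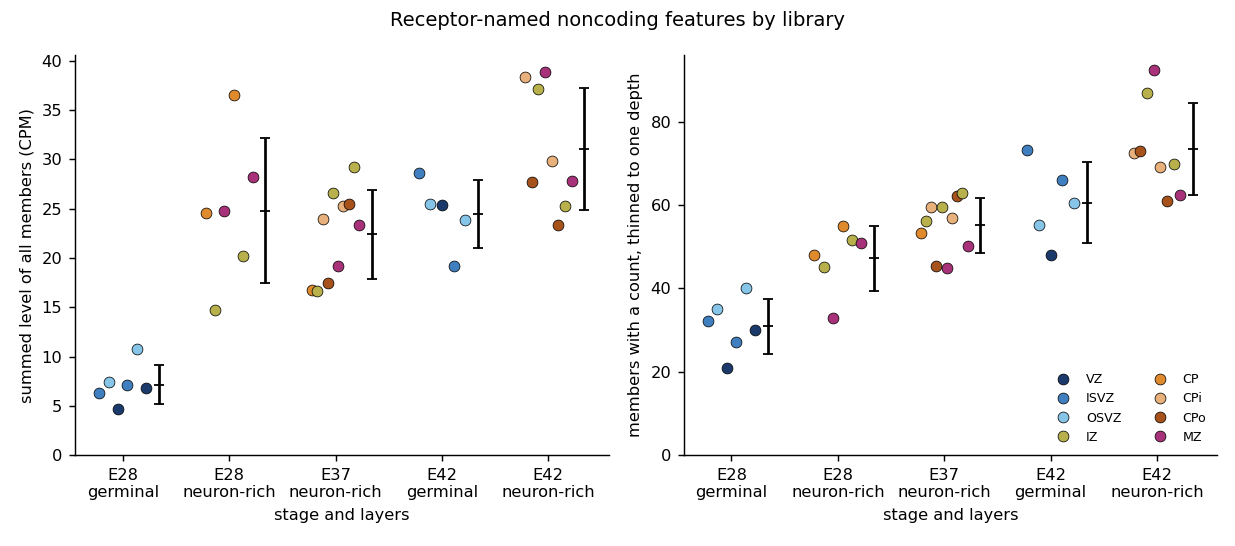
Summed level of the 416 members in CPM (left) and the number of members expected with a count at the depth of the shallowest library (right), with 1 point per library coloured by layer, the stages and kinds of layer along the horizontal axis, and bars for the mean ± SD. The germinal libraries of E28 lie between 4.66 and 10.7 CPM, below every other library.

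The classes differed in how they were spread over the layers, as a description without a test. Members named after AMPA receptors summed to a median of 1.30 CPM in the germinal layers of E28 and 4.87 CPM in the neuron-rich layers, and to 2.01 and 4.67 CPM at E42. For glycine receptor names these medians were 0.930 and 4.79 CPM at E28 but 4.86 and 4.00 CPM at E42. For serotonin receptor names they were 1.36 and 2.34 CPM at E28 and 7.32 and 5.67 CPM at E42. A single member, HTR3A-AS-1, made up a mean of 2.85 of the 6.53 CPM of the serotonin class in the ISVZ of E42 and 5.4 of 9.14 CPM in the OSVZ. Of the 8 tested serotonin names, 1 was higher and 1 lower in the germinal layers of E42, and their median log2 difference was -1.54, opposite in direction to the summed medians. For GABA-A names the germinal medians were 1.03 CPM at E28 and 3.83 CPM at E42, and the neuron-rich medians 3.02 and 5.46 CPM. The AMPA and glycine sums also lean on 1 member each. GRIA3-AS-3 had 3597 of the 4695 counts of the AMPA class, and GLRB-AS-3 had 3589 of the 4406 of the glycine class. In the OSVZ of E42, however, GRIA3-AS-3 made up a mean of 0.963 of the 2.30 CPM of its class.

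**Figure D2:**
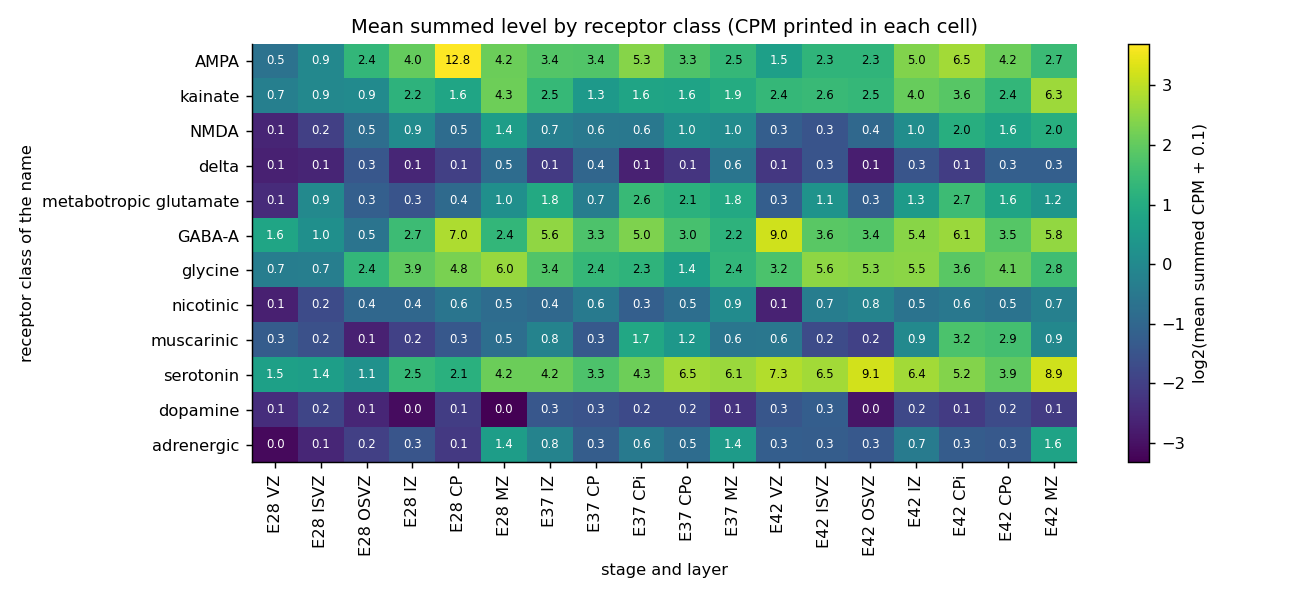
Mean summed level of each receptor class (rows) in each group of stage and layer (columns), with the mean in CPM printed in each cell and the colour on a log2 scale. In the germinal layers of E28 the AMPA, glycine, GABA-A and serotonin rows are darker (lower) than in the neuron-rich layers, and at E42 the glycine and serotonin rows are as bright in the germinal layers as elsewhere. Most counts of the AMPA row fell on GRIA3-AS-3 and most of the glycine row on GLRB-AS-3.

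In all, 10 comparisons of layers and stages were tested with edgeR's quasi-likelihood test on all 26858 features that passed the filter, with Benjamini-Hochberg adjustment over all of them and a threshold of 0.05. Each contrast weighs the layers of a side equally on a log scale, so its fitted log2 difference need not equal the ratio of the mean CPM of that side. The contrast has a limit for rare features: where each side has a layer without a count, no difference can be fitted and p lies near 1. This was so for 23 of the 64 members at E28, 10 at E42 and 15 in the subventricular zones from E28 to E42. None of these could be called, but they are kept in the medians over the 64 members.

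At E28, 22 of the 64 tested members differed between germinal and neuron-rich layers, 20 lower and 2 higher in the germinal layers. That is 34.4% of the tested members, beside 35.7% of all tested features and 16.6% of the tested intergenic and antisense features. Of the latter, 10.3% were lower and 6.35% higher. The median fitted log2 difference was -1.98 over the 64 members, -0.30 over the intergenic and antisense features and -0.05 over all features. The members called lower were 4 of 7 named after AMPA receptors, 3 of 9 after kainate, 2 of 3 after glycine, 4 of 16 after GABA-A, 4 of 8 after serotonin and 1 each after NMDA, nicotinic and adrenergic receptors, and none of the 5 named after metabotropic glutamate receptors. A fit of the E28 libraries alone called 13 members, and the count was 14 without the second IZ library.

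At E42, 11 members differed, 9 lower and 2 higher in the germinal layers. These are 17.2% of the 64, beside 30.1% of all tested features and 12% of the intergenic and antisense features, of which 4.73% were lower and 7.31% higher. The median log2 difference was -1.23 (0.20 over the intergenic and antisense features). Without the first OSVZ library 5 members were called, and 7 without the second or without the first MZ library. The change of the germinal difference from E28 to E42, tested as an interaction, passed for 5 members, all towards higher germinal levels at E42, beside 15% of all features and 4.85% of the intergenic and antisense features (3.76% higher). For 32 of the 64 members this contrast could not be fitted.

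In the subventricular zones the stages differed in a single direction. From E28 to E42, 12 members rose in the ISVZ and OSVZ and 0 fell, so that 18.8% of the members were called, beside 22.2% of all features and 8.11% of the intergenic and antisense features. Higher calls made up 6.82% of the latter. The median log2 difference was 2.08 over the members and 0.73 over the intergenic and antisense features. The 4 libraries of each stage did not overlap for 15 members, 11 of which were called. The share of all features without overlap was not counted, so this number cannot be read as particular to the members. In the neuron-rich layers 5 members differed from E28 to E37 (4 higher and 1 lower), beside 22.4% of all features and 11.4% of the intergenic and antisense features (3.42% higher and 7.99% lower). From E37 to E42, 6 differed (5 higher and 1 lower), beside 15.6% and 6.61% (5.56% higher and 1.04% lower). This last count was 0 without the first E42 IZ library, and of 18 libraries left out in turn, 8 moved it to 3 or fewer. It was 2 with the replicate number as a block shared over the stages, where the number marks no common animal.

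Between the MZ and the CP over the 3 stages, 6 members differed (2 higher and 4 lower in the MZ), beside 29.3% of all features and 9.2% of the intergenic and antisense features (5.76% higher and 3.44% lower). With only the libraries of these layers in the fit, 11 members were called. Between the IZ and the CP, 2 members were higher in the IZ, beside 19.6% and 4.78% (3.59% higher). No member passed between the OSVZ and the ISVZ, where 5.33% of all features and 0.748% of the intergenic and antisense features did. The count was 0 with edgeR and 0 with DESeq2, and 4 members had an unadjusted p under the threshold. No member passed between the CPi and the CPo with edgeR or DESeq2 either, beside 0.976% and 0.12%, and 2 had an unadjusted p under the threshold. Over all 10 comparisons, 35 of the 64 members were called at least once and 29 in none. The share of all features called at least once was not counted, so this number cannot be read as particular to the members. Comparisons that use the same libraries are not independent of each other.

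**Figure D3:**
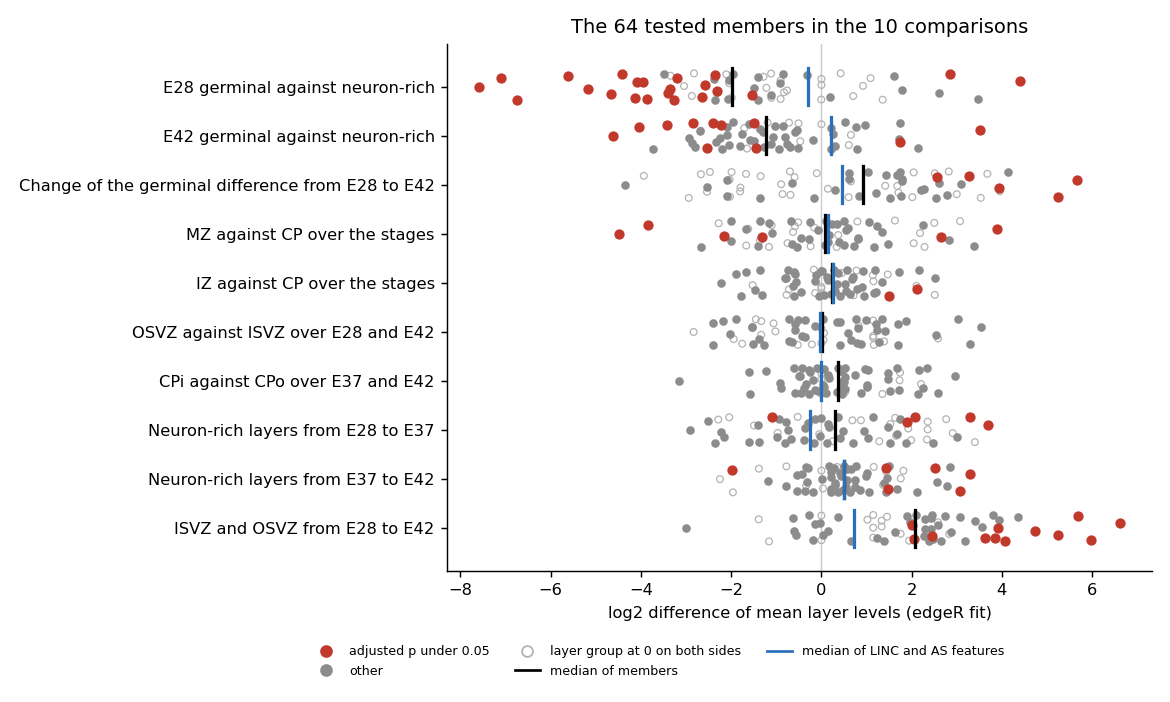
Fitted log2 differences of the 64 tested members in each of the 10 comparisons, with 1 point per member, called members in red, members that could not be fitted as open circles, and vertical bars at the median of the members (black) and of all tested intergenic and antisense features (blue). The points lie mostly below 0 for the germinal layers at E28 (52 of 64) and above 0 for the subventricular zones from E28 to E42 (52 of 64). Both counts include open circles, 23 and 15 members, for which no difference can be fitted. The medians of all tested intergenic and antisense features lay on the same sides of 0, at -0.30 and 0.73.

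Among the names of fast glutamate receptors, GRIA3-AS-3 was the most counted. GRIA3 encodes an AMPA receptor subunit. At E28 its antisense feature stood at 0.0319 to 2.60 CPM in the 6 germinal libraries (median 1.01) and at 2.03 to 16.9 CPM in the 6 neuron-rich libraries (median 3.43), highest in the CP at 7.50 and 16.9 CPM. The ranges met at the highest germinal library, of the OSVZ, and the germinal level was lower (log2 difference -2.32, SE 0.499, adjusted p = 0.00055 in edgeR's quasi-likelihood test). At E42 it lay between 0.921 and 1.49 CPM in the 5 germinal libraries and between 1.11 and 6.53 CPM in the 8 neuron-rich libraries (median 3.59), with a small overlap and the same direction (log2 difference -1.49, SE 0.528, adjusted p = 0.0342). This call was lost on leaving out any of 6 of the 13 libraries, with an adjusted p of up to 0.0962. The MZ, at 1.11 to 3.31 CPM (median 2.09, n = 6), was lower than the CP, at 1.39 to 16.9 CPM (median 4.12, n = 11), with a log2 difference of -1.31 (SE 0.441, adjusted p = 0.0259). Their ranges overlapped, and this call was lost without any of 5 of the 17 libraries. In the plate itself all 4 CPi libraries (4.12 to 6.53 CPM) lay above the 4 CPo libraries (1.39 to 3.16 CPM), but the difference did not pass (log2 difference 1.02, SE 0.576, adjusted p = 0.755).

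LINC-GRIA2-1, named after the AMPA subunit that makes the channel impermeable to calcium once its RNA is edited, changed most in the subventricular zones, and was chosen for description after its values were seen. At E28 its ISVZ libraries held no count and the OSVZ libraries 0.0275 and 0.0289 CPM. At E42 the ISVZ held 0.863 and 0.358 CPM and the OSVZ 0.58 and 0.871 CPM. The groups did not overlap, and the rise passed (log2 difference 5.97, SE 1.08, adjusted p = 0.000147), although its size leans on the prior count because the early side held only 2 counts. At E28 it was lower in the germinal layers (0 to 0.0989 CPM) than in the neuron-rich layers (0.082 to 0.518 CPM; log2 difference -4.12, SE 0.84, adjusted p = 0.000214), with 1 VZ library above 1 CP library. At E42 the same difference was -0.20 (SE 0.618, adjusted p = 0.914). The other members of the AMPA class called at E28, GRIA2-AS-3 and GRIA4-AS-4, had 32 and 45 counts on the neuron-rich side and 2 and 10 on the germinal side. The call of GRIA2-AS-3 was lost without any of 7 of the 12 libraries, and that of GRIA4-AS-4 without any of 3.

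GRIK1-AS-2 took the most counts among the kainate receptor names. It stood at 0 to 0.753 CPM in the germinal libraries of E28 (median 0.0921) and at 0.533 to 1.91 CPM in the neuron-rich libraries (median 1.01), with a log2 difference of -2.65 (SE 0.558, adjusted p = 0.000292). Only 1 OSVZ library reached into the neuron-rich range. At E42 the germinal libraries lay between 0.735 and 1.89 CPM and the neuron-rich libraries between 1.06 and 7.36 CPM, the highest being an MZ library, and the difference was -1.45 (SE 0.508, adjusted p = 0.0299). Leaving out any of 5 of the 13 libraries ended the call at E42. It rose in the neuron-rich layers from E37 (0.487 to 2.05 CPM, median 0.932, n = 10) to E42 (median 2.62 CPM, n = 8; log2 difference 1.43, SE 0.405, adjusted p = 0.0151), a call lost without the E37 MZ library of replicate 2 or the first IZ or MZ library of E42. In the subventricular zones it rose from 0.361, 0.0609, 0.11 and 0.753 CPM at E28 to 1.37, 0.842, 0.735 and 1.89 CPM at E42 (log2 difference 2.01, SE 0.622, adjusted p = 0.0186), with 1 late library just below the highest early one, and without any of 4 of the 8 libraries it did not pass.

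LINC-GRIK3-1 and LINC-GRIK3-16 had no count in the 6 germinal libraries of E28 and 41 and 25 counts in the neuron-rich libraries, which makes them at least 15.7-fold and 9.57-fold lower against a floor of 3 counts over the germinal libraries. Both calls came from few reads. Floors and counting intervals of this kind cover counting error only.

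NMDA receptors need both glutamate and depolarization to open, and their subunits change during maturation. GRIN2A-AS-2, named after the subunit that becomes common later in development, separated the layers at E42. The ISVZ held 0.0479 and 0.0537 CPM, the OSVZ 0.0773 and 0.174 CPM and the VZ 0.178 CPM. The neuron-rich libraries lay between 0.251 and 1.41 CPM (median 0.837, n = 8), with both MZ libraries and 1 CPi library at 1.40 to 1.41 CPM. No germinal library reached the lowest neuron-rich one, and the germinal level was lower (log2 difference -2.84, SE 0.88, adjusted p = 0.0136), also without any single library. At E28 its difference was -1.49 (SE 0.927, adjusted p = 0.234), and the change between the stages did not pass (adjusted p = 0.665). GRIN2D-AS-1, was chosen after its values were seen. Its germinal libraries at E28 lay at or below 0.0319 CPM and its neuron-rich libraries between 0.0322 and 1.00 CPM, with no overlap but a gap smaller than a count (log2 difference -3.96, SE 1.13, adjusted p = 0.00613).

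Metabotropic glutamate receptors modulate release and excitability, and 5 members named after them were tested. GRM7-AS-3, chosen after its values were seen, was lower in the germinal layers of E42, with 2 counts against 77 (adjusted p = 0.0273). That call was lost without any of 3 of the 13 libraries. The delta receptor name with the highest level among the tested ones, GRID1-AS-7, had 22 counts in 4 libraries, 16 of them in 1 E37 MZ library at 0.419 CPM, and none of its contrasts could be fitted.

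**Figure D4:**
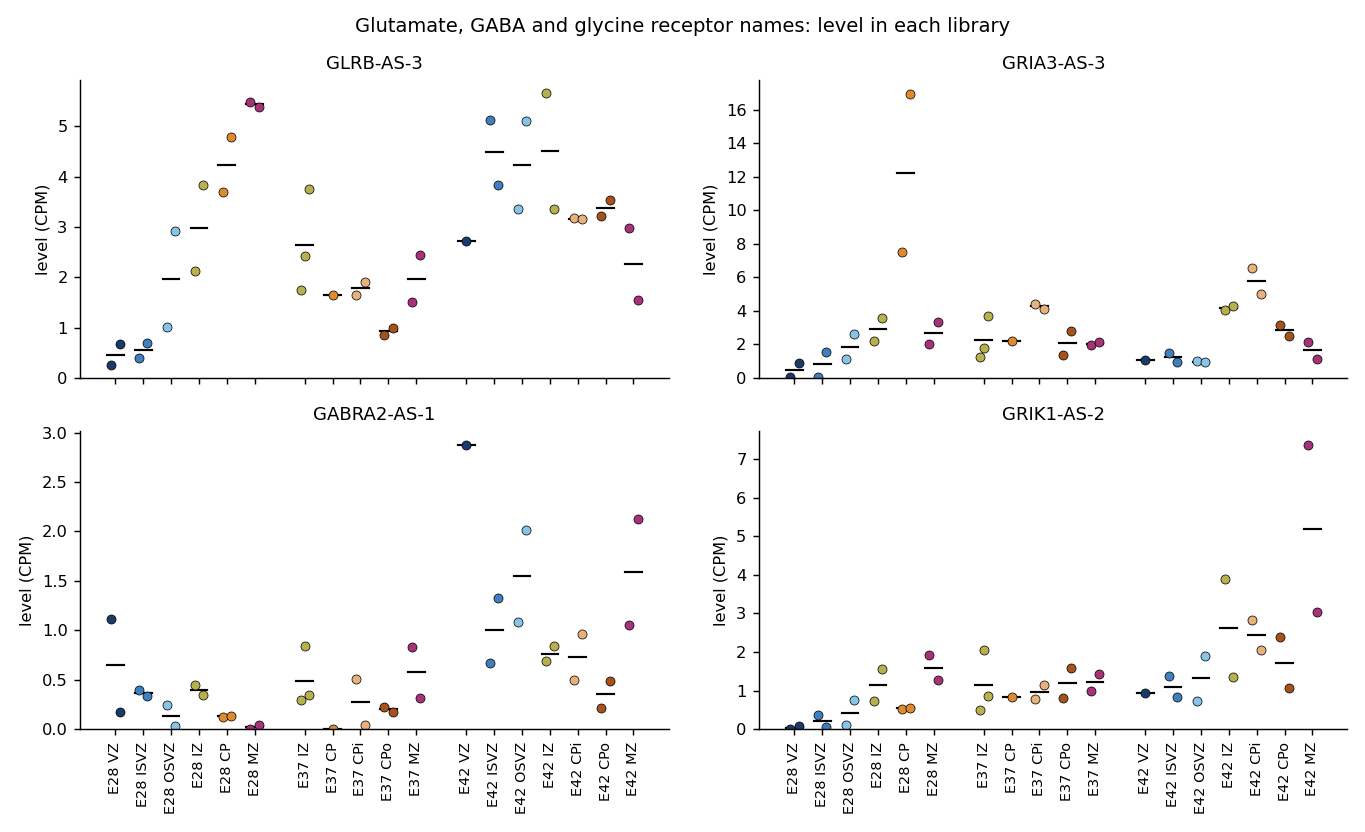
Levels in CPM of GLRB-AS-3, GRIA3-AS-3, GABRA2-AS-1 and GRIK1-AS-2 by stage and layer, with 1 point per library and a bar at the mean of each group. GRIA3-AS-3 peaks in the CP of E28 at 7.50 and 16.9 CPM, while the subventricular libraries of GLRB-AS-3 and GABRA2-AS-1 are higher at E42 than at E28.

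GABA-A receptor names made up the largest class with 82 members, of which 16 were tested. Reads of a gene and of its antisense partner cannot be told apart here, since no strand marking is described for the library kit and the strand setting of the counting is not given in the sources used here. This limit holds for every antisense member.

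GABRA2 encodes a subunit common in fetal GABA-A receptors. For GABRA2-AS-1 the ISVZ and OSVZ held 0.397, 0.335, 0.248 and 0.0289 CPM at E28 and 0.671, 1.33, 1.08 and 2.02 CPM at E42. The stages did not overlap, and the rise passed (log2 difference 2.45, SE 0.704, adjusted p = 0.0114) but not without the second E28 OSVZ library (adjusted p = 0.0697). Its highest value of all was the E42 VZ library at 2.87 CPM. It was also called higher in the IZ (0.292 to 0.839 CPM) than in the CP (0 to 0.964 CPM), and higher at E42 than at E37 in the neuron-rich layers (medians 0.764 and 0.303 CPM), with overlap in both cases. Each of these 2 calls was lost without any of 10 of its 18 libraries. With the replicate block shared over the stages, the call from E37 to E42 was lost (adjusted p = 0.179). GABRB1-AS-2 was called higher in the germinal layers at both stages. It was chosen after its values were seen. At E28 it had 25 counts in the germinal libraries and 0 in the neuron-rich libraries (at least 7.26-fold higher, adjusted p = 0.0376). At E42 it lay between 0.178 and 0.555 CPM in the germinal libraries and between 0 and 0.290 CPM in the neuron-rich libraries (adjusted p = 0.016). The E28 call was lost without any of 9 of the 12 libraries and the E42 call without either of 2 of the 13. In the DESeq2 Wald test it passed at neither stage (adjusted p = 0.212 and 0.197). The 2 other tested features of the symbol had log2 differences below 0 at both stages, and neither was called there. LINC-GABRB1-1, of the same symbol, was called in no comparison, and its highest value was likewise the E42 VZ library at 2.96 CPM.

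Glycine receptors are chloride channels that in the embryonic brain respond to glycine and taurine, and GLRB encodes their anchoring subunit. GLRB-AS-3 was called in 4 comparisons. At E28 it lay at 0.255 and 0.668 CPM in the VZ, 0.397 and 0.700 CPM in the ISVZ and 1.02 and 2.92 CPM in the OSVZ. The IZ held 2.13 and 3.83 CPM, the CP 3.69 and 4.79 CPM and the MZ 5.49 and 5.38 CPM. No VZ or ISVZ library exceeded 0.700 CPM and no CP or MZ library lay below 3.69 CPM, while the second OSVZ library stood above the first IZ library, and the germinal layers were lower (log2 difference -2.35, SE 0.322, adjusted p = 5.52e-07). By E42 the ISVZ held 5.13 and 3.83 CPM, the OSVZ 3.36 and 5.10 CPM and the VZ 2.73 CPM, beside 1.54 to 5.66 CPM in the neuron-rich layers (median 3.19, n = 8). The rise in the subventricular zones, with no overlap, had a log2 difference of 2.06 (SE 0.387, adjusted p = 0.00021). At E42 the germinal difference was 0.20 (SE 0.307, adjusted p = 0.708), and the interaction was 2.56 (SE 0.437, adjusted p = 0.000107).

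In the neuron-rich layers GLRB-AS-3 fell from E28 to E37, where its 10 libraries lay between 0.852 and 3.76 CPM (median 1.71; log2 difference -1.09, SE 0.275, adjusted p = 0.00453). The step from E37 to E42 was 0.75 (SE 0.263) and did not pass (adjusted p = 0.0508). Each of its 4 calls held without any single library of the comparison. The 2 other tested features of the symbol were also counted in 34 of the 35 libraries each, and GLRB-AS-1 was lower in the germinal layers of E28 too (0 to 0.318 CPM against 0.0441 to 0.516 CPM, log2 difference -2.58, SE 0.758, adjusted p = 0.00764). That call was lost without the first E28 MZ library (adjusted p = 0.154). It was the only call of GLRB-AS-1, and GLRB-AS-2 was called in no comparison.

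Among the names of serotonin receptors, HTR3A-AS-1 was called in 6 of the 10 comparisons, more than any other member. HTR3A encodes a subunit of the serotonin-gated ion channel, which in the cortex is known from a class of GABAergic interneurons and from Cajal-Retzius cells. In the MZ it stood at 1.21 and 4.06 CPM at E28, 3.22 and 3.04 CPM at E37 and 4.56 and 4.44 CPM at E42. The 11 CP libraries lay between 0 and 0.643 CPM (median 0.214). No MZ library came down to the CP range, and the MZ was higher (log2 difference 3.90, SE 0.542, adjusted p = 2.37e-06). The IZ, at 0.168 to 1.75 CPM (median 0.933, n = 7), was higher than the CP as well (log2 difference 2.13, SE 0.514, adjusted p = 0.00329), with overlap. Both calls held without any single library.

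In the subventricular zones HTR3A-AS-1 held 0.108, 0.670, 0.275 and 0.0579 CPM at E28 and 3.62, 2.08, 8.08 and 2.71 CPM at E42. The rise had a log2 difference of 3.91 (SE 0.749, adjusted p = 0.000327), with no overlap, and held without any single library. The germinal layers were above the neuron-rich layers at E42 (2.08 to 8.08 CPM against 0.0964 to 4.56 CPM, the MZ libraries lying within the germinal range; log2 difference 1.74, SE 0.541, adjusted p = 0.0147), but not without the first OSVZ library (adjusted p = 0.064). At E28 they were below them (0.0319 to 0.670 CPM against 0.205 to 4.06 CPM; log2 difference -1.53, SE 0.604, adjusted p = 0.0494), a call lost without any of 8 of the 12 libraries. The interaction was 3.27 (SE 0.812, adjusted p = 0.00587).

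Features named after interneuron genes (34 in all, under 6 of the 8 symbols GAD1, GAD2, DLX1, DLX2, DLX5, DLX6, LHX6 and MAF) summed to 6.76 to 17.7 CPM in the MZ and to 0.715 to 3.78 CPM in the CP, and to 2.45 to 13.7 CPM in the ISVZ and OSVZ of E28 and 10.4 to 44.9 CPM in those of E42. Of the 14 tested, 7 were higher and 0 lower in the MZ than in the CP, and 5 rose and 0 fell in the subventricular zones. Among all tested intergenic and antisense features 5.76% were higher and 3.44% lower in the MZ, and 6.82% rose in the subventricular zones. None of the 14 was called between the IZ and the CP, where HTR3A-AS-1 was higher in the IZ. In the OSVZ 0 were higher and 2 lower than in the ISVZ (DLX5-AS-1 and GAD2-AS-1, list median -1.31), where the log2 difference of HTR3A-AS-1 was -0.15 (adjusted p = 1). Features named after Cajal-Retzius genes (24) summed to 16.8 to 133 CPM in the MZ and 3.57 to 9.60 CPM in the CP. The 6 named after genes of the oligodendrocyte lineage went from 0.608 to 0.944 CPM in the subventricular zones of E28 to 2.60 to 20.5 CPM at E42. The part of these cells in the levels of HTR3A-AS-1 and of the other members that rose in the subventricular zones was not tested.

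**Figure D5:**
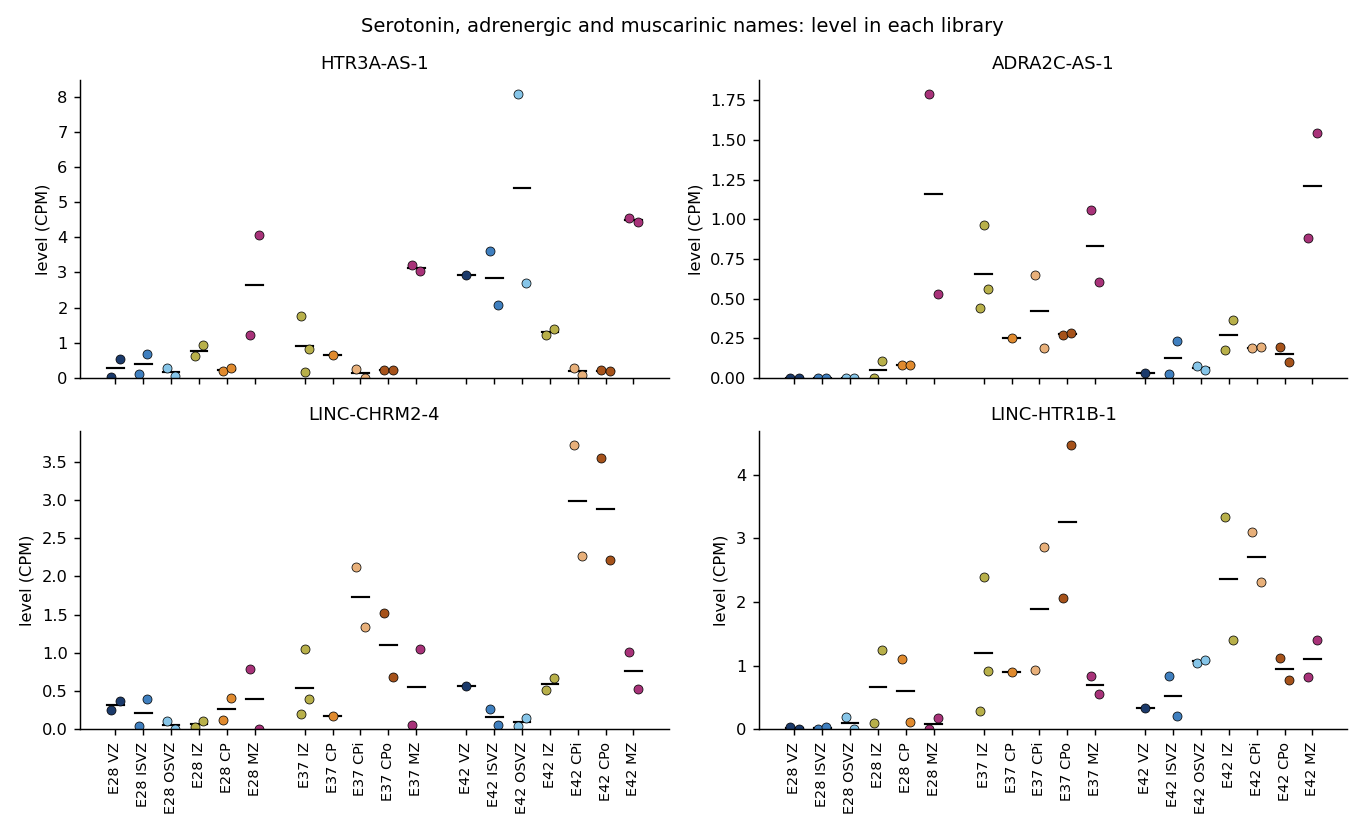
Levels in CPM of HTR3A-AS-1, ADRA2C-AS-1, LINC-CHRM2-4 and LINC-HTR1B-1 by stage and layer, with 1 point per library and a bar at the mean of each group. HTR3A-AS-1 and ADRA2C-AS-1 are higher in the MZ than in the CP, and LINC-CHRM2-4 is highest in the CPi and CPo of E42, at 2.21 to 3.72 CPM.

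HTR1B encodes an inhibitory serotonin receptor found on axon terminals. LINC-HTR1B-1 held 0, 0.0305, 0.193 and 0 CPM in the ISVZ and OSVZ of E28 and 0.839, 0.215, 1.04 and 1.09 CPM at E42. The stages did not overlap (log2 difference 4.06, SE 1.07, adjusted p = 0.00684). At E28 it was lower in the germinal layers (0 to 0.193 CPM) than in the neuron-rich layers (0 to 1.24 CPM; log2 difference -3.27, SE 1.02, adjusted p = 0.013), with overlap and without the call when any of 3 libraries was left out. In the neuron-rich layers it rose from a median of 0.142 CPM at E28 to 0.921 CPM at E37 (log2 difference 1.90, SE 0.684, adjusted p = 0.0467). This call was lost without any of 10 of the 16 libraries and with the replicate block shared over the stages (adjusted p = 0.108). LINC-HTR1B-2, chosen after its values were seen, had no count in the 4 early subventricular libraries and 30 counts at E42 (at least 8.04-fold higher, adjusted p = 0.00628).

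HTR2A encodes an excitatory serotonin receptor. HTR2A-AS-1 was present in every germinal library of E28 (0.145 to 0.766 CPM), while both MZ libraries of that stage held no count and the CP and IZ held 0.246, 0.0271, 0.902 and 0.207 CPM. It was called higher in the germinal layers (log2 difference 2.86, SE 0.896, adjusted p = 0.0125) and higher in the neuron-rich layers of E37 (0.107 to 1.56 CPM) than of E28 (log2 difference 3.69, SE 0.831, adjusted p = 0.00177). Both fitted values lean on the empty MZ libraries. With the libraries of each side taken as a single group, an alternative chosen after the data were seen, the differences were 1.03 (adjusted p = 0.322) and 1.84 (adjusted p = 0.0697). HTR5A-AS-1, also chosen after its values were seen, was lower in the germinal layers at E28 (0 to 0.0361 CPM against 0 to 0.738 CPM, adjusted p = 0.000552) and rose in the subventricular zones to 0.0387 to 0.527 CPM at E42 (adjusted p = 0.0149), the latter lost without any of 4 of the 8 libraries (adjusted p up to 0.23). It was also called lower in the germinal layers at E42 (log2 difference -2.22, SE 0.803, adjusted p = 0.0363), which was lost without any of 5 of the 13 libraries and with the replicate block (adjusted p = 0.0575).

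Muscarinic receptors carry the slow response to acetylcholine, and LINC-CHRM2-4 was their only tested name. It peaked in the cortical plate of E42, with 3.72 and 2.26 CPM in the CPi and 3.55 and 2.21 CPM in the CPo. The IZ of that stage held 0.512 and 0.67 CPM and the MZ 1.00 and 0.531 CPM. The germinal libraries lay between 0.0387 and 0.563 CPM (median 0.149, n = 5) and were lower than the neuron-rich layers (log2 difference -2.41, SE 0.771, adjusted p = 0.0177), also without any single library, although the VZ library reached the lower IZ and MZ values. At E28 the difference was -0.31 (SE 0.789, adjusted p = 0.90), and the change between the stages was not past the threshold (adjusted p = 0.228). CHRNA7-AS-3, the tested nicotinic name with the highest mean level, named after a calcium-permeable receptor subunit, ranged from 0 to 0.865 CPM and was called in no comparison. Among the 4 tested nicotinic names only CHRNA7-AS-2 was called, lower in the germinal layers of E28 with 2 counts against 22, and that call was lost without any of 8 of the 12 libraries.

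ADRA2C encodes an inhibitory receptor for noradrenaline. ADRA2C-AS-1 was highest in the MZ, with 1.79 and 0.529 CPM at E28, 1.06 and 0.603 CPM at E37 and 0.88 and 1.54 CPM at E42. The CP libraries lay between 0.0812 and 0.648 CPM (median 0.193, n = 11), with 1 CPi library of E37 within the MZ range, and the MZ was higher (log2 difference 2.64, SE 0.562, adjusted p = 0.000565), also without any single library. In the germinal layers of E28 it had no count in 6 libraries, against 79 counts in the neuron-rich layers (at least 30.2-fold lower, adjusted p = 0.000163). Of the 79 counts, 71 lay in the MZ, 5 in the CP and 3 in the IZ, so the fold is mostly that of the MZ. The E28 call could not be fitted without the second IZ library, which leaves a layer without counts on each side. At E42 the germinal libraries held 0.024 to 0.233 CPM and the neuron-rich libraries 0.103 to 1.54 CPM (log2 difference -2.53, SE 0.773, adjusted p = 0.0133). The second ISVZ library, at 0.233 CPM, lay above the CPi and CPo libraries of that stage (0.103 to 0.195 CPM). The only tested dopamine receptor name, LINC-DRD1-1, had 118 counts in all. It was called higher in the neuron-rich layers of E37 (0 to 0.432 CPM) than of E28 (0 to 0.162 CPM, adjusted p = 0.043). This call was lost without any of 10 of the 16 libraries and with the replicate block shared over the stages (adjusted p = 0.235).

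GRID2IP matches the naming rule by its letters, but it encodes a protein that binds a delta receptor and is no receptor itself. Its 5 features, GRID2IP-AS-1 to GRID2IP-AS-4 and LINC-GRID2IP-1, had 28 counts in all, none passed the filter, and removing them changes no count of calls.

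Noncoding features named after other synaptic genes were counted in the same tests. Of 41 tested features named after postsynaptic scaffolds and auxiliary subunits, 14 were lower and 1 higher in the germinal layers of E28, with a median log2 difference of -1.71. Among all tested intergenic and antisense features 10.3% were lower and 6.35% higher there. Of 19 named after genes of vesicle release, 7 were lower and 0 higher (median -2.04). Of 23 named after transmitter transporters and synthetic enzymes, 3 were lower and 2 higher (median -0.74), 7 were higher and 0 lower in the MZ than in the CP, and 7 rose and 0 fell in the subventricular zones from E28 to E42. Among all tested intergenic and antisense features 5.76% were higher in the MZ and 6.82% rose in the subventricular zones. In the subventricular zones 4 of the scaffold names rose and 1 fell, and 2 of the vesicle release names rose and 0 fell. The transporter and enzyme names include GAD1 and GAD2, which also stand among the interneuron names.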

How the data were processed

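Members and gene lists were chosen with earlier results of these data known. The authors mapped reads with HISAT2 to the Chinese tree shrew genome, counted them per annotated feature with HTSeq and deposited the raw counts without normalization. Ambiguous reads made up 15.0% to 19.1% of lines. No sequence or coordinate of the annotation was used here.

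Tests on the counts of 35 libraries used edgeR 4.0.16, limma 3.58.1 and DESeq2 1.42.0 under R 4.3.3. Features were kept with filterByExpr (minimum count 10), scaled by TMM and fitted with 1 mean for each of 18 groups of stage and layer (17 residual degrees of freedom, common biological coefficient of variation 0.381), using the robust quasi-likelihood test. The CP of E42 was the mean of CPi and CPo, and the 5 CP libraries of E37 were weighted alike. Members named were those called with a mean of at least 0.5 CPM (up to 4 per direction and comparison), the 10 highest, the highest tested member of each class and names that are no receptor; others are marked in the text, and the results of some members are not reported here. Folds against 0 counts use 3 counts over the group.

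Replicate pairs differed by 30.3 to 94.7 in chi-square per degree of freedom. Deviations of equally numbered libraries had correlations over 0.1 for all 15 layer pairs of E28, all 6 of E37 and 10 of the 15 of E42. The number may therefore pair libraries within E28 and E37, but the labels do not say what it marks. Across stages the number cannot mark the same animal. The main fit held no term for the number, so its SE and p-values ignore any pairing. The replicate block was run as an alternative only. It had separate terms for each stage, except in the comparisons between stages, where 1 effect per number was shared over the stages. A call lost with the shared block therefore says nothing about a pairing of animals. The scripts were tested on simulated data. Alternatives were DESeq2, its size factors, no filter, a stricter filter, a replicate block, the repeated file kept, only the groups compared, each side as 1 group (added after the data were seen), and each library left out. Fits with a library left out kept the filter and the dispersion of the full data. Scaling and the quasi-likelihood spread were estimated again, so these fits are not fully independent of the library left out.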

Additional observations from a re-analysis of the deposited data

Results flagged for a closer look

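From E28 to E42 the germinal difference from the neuron-rich layers changed for 5 members, 3 of which are given here, by the test of the difference itself (edgeR's quasi-likelihood test of the interaction, Benjamini-Hochberg adjusted over all features). On the log2 scale the change was 2.56 for GLRB-AS-3 (adjusted p = 0.000107), 3.27 for HTR3A-AS-1 (adjusted p = 0.00587) and 3.93 for LINC-GRIA2-1 (adjusted p = 0.0113). These were towards higher germinal levels at E42. These 3 passed without any single library. With each side as 1 group, HTR3A-AS-1 did not pass (adjusted p = 0.0828). No group of stage and layer held enough libraries for a search for outlying samples.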

How the results depend on the processing

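No called member reversed its direction under any alternative. Of 69 calls of a member in a comparison, DESeq2's size factors lost 1, no filter 9, the replicate block 8, keeping the repeated VZ file 7, each side as 1 group 20, DESeq2 4 of 64, only the groups compared 6 of 59 and a filter over 4 libraries 0 of 58. Leaving out libraries kept 29 of the 69 through every omission. With the replicate block the counts of called members were 22 at E28 and 12 at E42. With the block shared over the stages they were 13 in the subventricular zones, but from E37 to E42 they went from 6 to 2. With the repeated file kept, the IZ against the CP had 1 call. Fits of only the groups compared gave 13 calls at E28, 11 in the MZ and 4 in the IZ. With each side as 1 group, 1 member differed between IZ and CP, 3 from E28 to E37 and 2 from E37 to E42. Leaving out 1 library gave 14 to 21 calls at E28 (14 without the second IZ library), 5 to 11 at E42 (5 without the first OSVZ library, 7 without the second or the first MZ library), 4 to 6 for the interaction, 5 to 8 for MZ against CP, 1 to 3 for IZ against CP (1 without any CP or IZ library of E28, the first CPi or CPo library of E42 or either E42 IZ library), 0 for OSVZ against ISVZ and CPi against CPo, 3 to 7 from E28 to E37 (3 without the first E28 IZ library, the E37 CPo library of replicate 2 or the E37 CPi or MZ library of replicate 3), 0 to 7 from E37 to E42 (0 without the first E42 IZ library; 1 without the E37 IZ library of replicate 1, the E37 MZ library of replicate 3 or the first E42 MZ library; 2 without the CPi or CPo library of replicate 2 of E42; 3 without the undivided E37 CP or the second E42 IZ library) and 8 to 12 in the subventricular zones. At full depth the mean number of members counted was 40.67 in the germinal layers of E28, 76.8 in those of E42 and 97.75 in the neuron-rich layers of E42. Calls near a handful of reads are limited by depth, and 1 count reached 0.0556 CPM in the shallowest library.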
